A study of Xenopus laevis with 9 samples.

Results

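The early answer of a tadpole tail to thyroid hormone was read from 6 of the 9 arrays of a Xenopus laevis series. They comprised 3 arrays of tails after 6 h in 20 nM T3 and 3 arrays of tails after 48 h in vehicle, and all 15491 probe sets that are not array controls were considered. T3 (3,5,3'-triiodothyronine) was given in the rearing water to whole larvae labelled stage 54, although the source label allows a wider range of stages, and each array held RNA from a pool of 3 tails. The remaining 3 arrays came from tails after 48 h in 20 nM T3. They entered the fit to share its estimate of spread and are used below only to place the 6 h values. Vehicle tails were collected at 48 h only. Hormone and time since the start of exposure therefore cannot be told apart between T3 6 h and vehicle, and this holds for every difference below. No label ties the pools to clutches or to runs of exposure, and the p-values therefore reflect only how these pools differ from each other, which may be technical.

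T3 acts through nuclear receptors that sit on DNA near their target genes, hold them silent with corepressors when hormone is absent and recruit coactivators when it binds. In tadpole tails a small set of genes that carry the receptors' binding sites responds within hours, among them the receptor thrb itself, the transcription factors klf9 and thibz, and the deiodinase dio3. Matrix-degrading enzymes and the resorption programme of muscle, notochord and connective tissue follow over days. The tail is a whole tissue of muscle, epidermis, notochord, spinal cord, fibroblasts and blood, so fewer cells of a type and less RNA per cell cannot be told apart in these arrays.

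Values are log2 of the deposited intensity, which the authors had divided by the median of each array. A value of 0 is thus the median of its array, and a change is a difference of these log2 values, T3 6 h minus vehicle. A level filter, log2 of at least 0 in 3 of the 9 arrays, kept 8123 probe sets (52.44%), of which 5570 listed a single gene. A probe set high in a single group could thus pass through that group alone. The median change of the 8123 was 0.03, 54.34% of them were positive, their quartiles were -0.14 and 0.19, and the median standard error (SE) was 0.16. Arrays of the T3 6 h group correlated with each other at 0.981 to 0.988, against 0.985 to 0.987 within vehicle. Within T3 48 h, which shares the estimate of spread, they correlated at 0.966 to 0.980. On the second principal component, which carried 17.62% of the variance of the 9 arrays, the T3 6 h arrays 1, 2 and 3 scored -19.31, -3.511 and -17.38, and the vehicle arrays scored 13.87, 12.61 and 8.738. T3 6 h array 2 lay nearest to vehicle, so several list medians and calls, and the total of probe sets without overlap, are also given without it. Counts without overlap within a list are given with all arrays only. Markers of muscle and epidermis were mostly high: 48 of 57 skeletal muscle probe sets lay above the array median on all 9 arrays, as did 37 of 56 epidermal ones. The same held for 19 of 40 neural, 12 of 31 erythroid and 3 of 8 notochord and cartilage probe sets, against 4 of 40 for liver, pancreas and gut.

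At 6 h, 18 probe sets passed the test, a share of 0.222% of those tested, with 14 higher (0.172%) and 4 lower (0.0492%). The test was limma's moderated statistic with Benjamini-Hochberg adjustment over the 8123 probe sets, and an adjusted p under 0.05 made a call. Of the called probe sets, 12 listed a single gene, 8 of them higher and 4 lower, and the other 6, all higher, listed none. The changes were modest, and 7 of the 18 reached 2-fold. Every call had T3 6 h arrays that did not overlap the vehicle arrays, a property shared by 1142 probe sets in the higher direction (14.1%) and 852 in the lower direction (10.5%). Before adjustment 1270 probe sets had a p under 0.05, 718 higher and 552 lower. The count of calls moved with the arrays in the fit. It was 66 (47 higher, 19 lower) when only the 6 arrays compared were fitted, and these held 17 of the 18. Without T3 6 h array 2 it was 22, with 8 of the 18 among them, and it was 0 without T3 6 h array 1, vehicle array 1 or vehicle array 2, 1 without T3 6 h array 3, 7 without vehicle array 3, and 99, 3 and 1 without T3 48 h array 1, 2 or 3. All 18 kept their direction in each of these fits. Groups that do not overlap make this certain, so it says nothing about robustness.

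**Figure D1:**
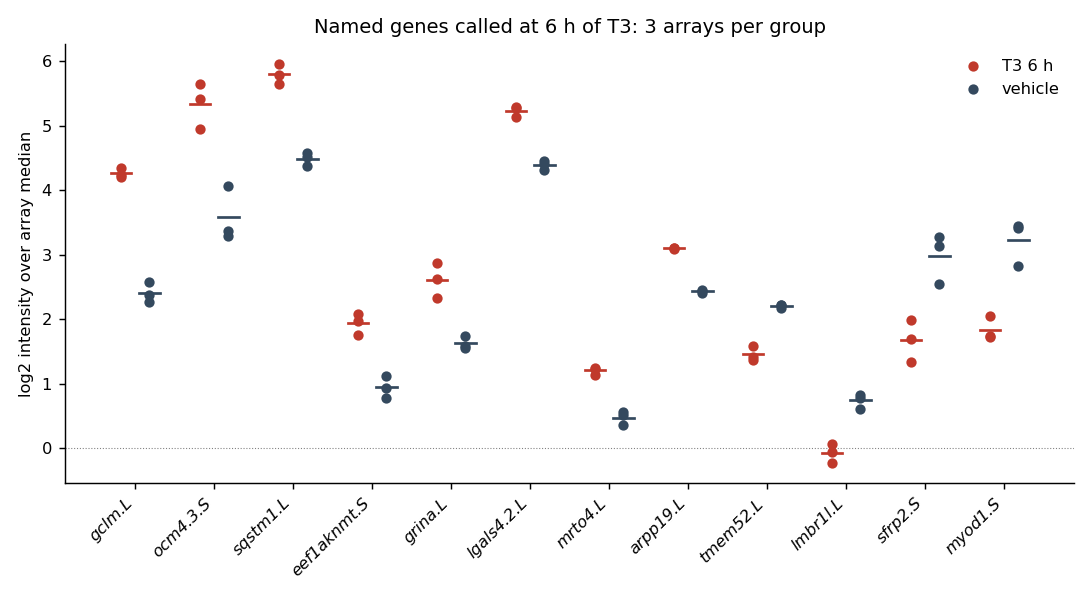
Log2 intensity over the array median (vertical axis) of the 12 called probe sets that list a single gene, with T3 6 h left of vehicle. Points are the 3 arrays of each group and bars their means. No gene has overlapping groups, and 8 genes are higher and 4 lower after 6 h of T3.

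**Figure D2:**
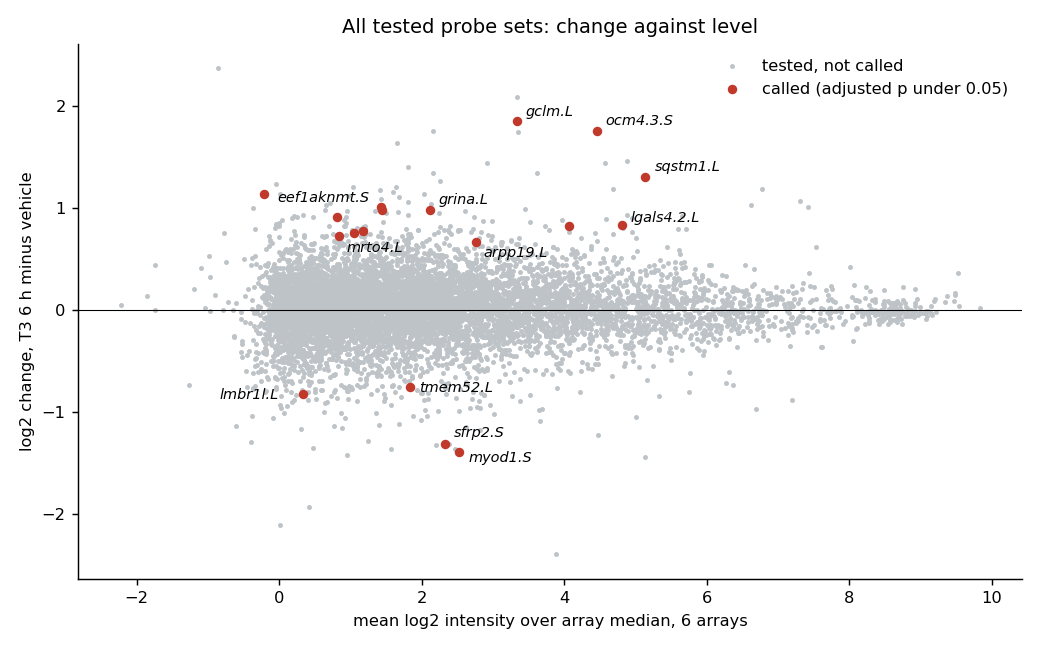
Log2 change, T3 6 h minus vehicle (vertical axis), against the mean log2 intensity of the 6 arrays (horizontal axis) for the 8123 tested probe sets. The 18 called probe sets are marked, with names for the 12 that list a single gene. Several uncalled points lie farther from 0 than called ones.

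A subunit of glutathione synthesis and an autophagy receptor were among the called rises. The rise of gclm.L, the modifier subunit of glutamate-cysteine ligase, which makes the precursor of glutathione, was the largest among called genes. It read 4.34, 4.24 and 4.2 in the T3 6 h arrays, against 2.27, 2.38 and 2.57 in the vehicle arrays. These are tight groups set apart by 1.63 on the log2 scale, a 3.62-fold difference (log2 1.85 ± 0.26 SE, n = 3 per group, adjusted p = 0.0432). The SE draws on all 9 arrays, and gclm.L had an SD of 0.64 at T3 48 h, against 0.07 at T3 6 h and 0.15 in vehicle. In the fit of 6 arrays its SE was 0.12. The partner subunit gclc.L, the catalytic subunit of the same enzyme, read 0.21, 0.52 and 0.50 after T3 for 6 h, against -0.26, -0.64 and -0.34 in vehicle. Its groups did not overlap, and its log2 change of 0.82 did not pass the test (adjusted p = 0.0882). Only its T3 6 h arrays lay above the array median, so gclc.L passed the level filter through that group alone. Its lack of overlap is therefore no separate support for gclm.L. The autophagy receptor sqstm1.L (p62), which carries ubiquitinated cargo and in mammals also binds the NFE2L2 inhibitor KEAP1, read 5.78, 5.96 and 5.65 in the T3 6 h arrays and 4.38, 4.57 and 4.51 in vehicle. Its rise of log2 1.31 ± 0.13 had the lowest adjusted p of all in the fit of 9 arrays, 0.0103. In the limma fit of 6 arrays the lowest adjusted p was that of gclm.L, 0.0025. The call of sqstm1.L survived most often, in 6 of 9 fits without an array, whereas the other 11 named genes kept theirs in 1 to 3.

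The list around nfe2l2, the transcription factor that drives such genes in mammals, had 8 tested probe sets and a median of 0.19. Of these, 2 rose (gclm.L and sqstm1.L), where 0.172% of all tested were called higher. Together with gclc.L they made 3 (37.5%) wholly above vehicle, with none below, against 14.1% and 10.5% of all tested. Among the other members, nfe2l2.L itself had a log2 change of -0.17 and the heme oxygenase probe sets hmox1.S and hmox1.L had 0.22 and -0.10. Without T3 6 h array 2 the list had 1 call. In the wider list of glutathione and thiol redox genes, gclm.L was the only call among 43 tested probe sets, 28 (65.1%) had a positive change, against 54.34% of all tested, and 10 (23.3%) lay wholly above vehicle and 3 (6.98%) below, against 14.1% and 10.5% of all tested. Its median was 0.09, and 0.07 without T3 6 h array 2. Array by array, the median relative to the vehicle mean was 0.13, 0.03 and 0.02 in T3 6 h arrays 1, 2 and 3. It was 0.03, -0.04 and 0.05 in vehicle arrays 1, 2 and 3, so T3 6 h arrays 2 and 3 lay within the vehicle range. The lists were drawn up with the calls known, so the called genes on them are no separate evidence about a list. Nor is gclc.L, a member of both, which passed the level filter through its T3 6 h arrays alone. The share of 37.5% therefore rests on no separate evidence. Among the 10 of the glutathione and thiol redox list above vehicle, against 3 below, were glutathione synthetase gss.L, glutathione reductase gsr.L and the glutathione transferase gstp1.L. Others of the 10 were gamma-glutamyltransferase ggt1.L and both homeologs of the mitochondrial glutaredoxin glrx5, with 0.63 for glrx5.S. Of the lysosome and autophagy list, 1 of 39 tested probe sets (sqstm1.L) rose, where 0.172% of all tested did, and the median was 0.05. In that list 4 (10.3%) lay wholly above vehicle and 3 (7.69%) below, against 14.1% and 10.5% of all tested. The next largest changes there were 0.60 for atg5.L, needed to form autophagosomes (adjusted p = 0.151), and 0.44 for the lysosomal protease lgmn.L.

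Proteasome and chaperone genes leaned upward with no call. Of 60 tested proteasome probe sets 53 had a positive change, and the median was 0.19 against 0.03 for all tested. In this list 14 (23.3%) lay wholly above vehicle and 1 (1.67%) below, against 14.1% and 10.5% of all tested. The alternative activator subunit psme3.L read 1.76, 1.30 and 1.86 after 6 h of T3 and 0.36, 0.21 and 0.72 in vehicle (log2 1.21, adjusted p = 0.0724). The assembly chaperone psmg1.L had 0.69 and the regulatory particle subunit psmd12.S had 0.68. Array by array, the proteasome median relative to the vehicle mean was 0.31, 0.03 and 0.21 in T3 6 h arrays 1, 2 and 3. It was 0.07, -0.13 and 0.07 in vehicle arrays 1, 2 and 3, so T3 6 h array 2 lay within the vehicle range. Without T3 6 h array 2 the proteasome median was 0.27. The chaperone list had a median of 0.10 over 87 tested probe sets, with 20 (23.0%) wholly above vehicle and 2 (2.30%) below, where 14.1% and 10.5% of all tested were. Without T3 6 h array 2 its median was 0.15. Among them were the mitochondrial co-chaperonin hspe1.L in both of its probe sets (0.67 and 0.61), its partner hspd1.S, and the endoplasmic reticulum proteins hspa5.L, calr.L, canx.L, pdia6.S and dnajb11. Both cytosolic chaperonin subunits that separated, cct4.L and cct7.L, lay below vehicle. Array by array, the chaperone median was 0.12, 0.03 and 0.14 in T3 6 h arrays 1, 2 and 3. It was -0.01, -0.06 and 0.07 in vehicle arrays 1, 2 and 3, so here too T3 6 h array 2 lay within the vehicle range.

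Among lists with over 30 tested probe sets, ribosome assembly had the largest share wholly above vehicle. Of 79 tested probe sets of ribosome biogenesis genes, 63 had a positive change, 1 rose, where 0.172% of all tested did, and none fell. In this list 27 (34.2%) lay wholly above vehicle and 5 (6.33%) below, against 14.1% and 10.5% of all tested. The median was 0.20, and it was 0.19, 0.08 and 0.34 in T3 6 h arrays 1, 2 and 3, and 0.26, with no call, without array 2. The call was mrto4.L, a factor that joins the large subunit during its assembly, which read 1.25, 1.14 and 1.23 in T3 6 h arrays, against 0.56, 0.35 and 0.51 in vehicle (log2 0.73 ± 0.12, adjusted p = 0.0432). Another probe set of mrto4.L was too dim to be tested and had 0.41. The processome component utp15.L had 0.66 (adjusted p = 0.0732) and the RNA polymerase I subunit polr1a.L 0.53. Those wholly above vehicle also included fibrillarin (fbl.S), nop58.S, nop14.L, gnl3.L, polr1e.L and several DDX helicases, while both homeologs of ddx21 lay below. Cytosolic ribosomal proteins, the products being assembled, showed no upward lean: over 84 tested probe sets the median was -0.03, with 1 (1.19%) wholly above vehicle and 11 (13.1%) below, where 14.1% and 10.5% of all tested were. The 3 lowest p-values among them belonged to rpl6.S, rps25.S and rpl12.S, with changes of -0.12, -0.12 and -0.13. Translation factors had a median of -0.03, with 7 (10.1%) wholly above vehicle and 12 (17.4%) below, against 14.1% and 10.5% of all tested. Of 69 tested 1 was called, where 0.172% of all tested were called higher. The call was eef1aknmt.S, which methylates the elongation factor eEF1A. Its arrays read 1.96, 1.75 and 2.08 after 6 h of T3 and 0.93, 0.78 and 1.13 in vehicle (log2 0.99 ± 0.13, adjusted p = 0.0432).

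At 48 h of T3 the ribosome biogenesis genes stood on the other side of vehicle. Their median change, T3 48 h minus vehicle, was -0.48, and 30 of the 79 were called lower, where 6.04% of all tested probe sets were. Set directly against T3 6 h, the T3 48 h arrays were lower in 57 of the 79, against 11.9% of all tested, and higher in 0. This comparison uses the same T3 6 h arrays as that with vehicle, so its counts are given as a description. Of the proteasome list, 12 of 60 were lower at T3 48 h than at T3 6 h and 0 higher.

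Among muscle genes, the myogenic regulators leaned downward and the parvalbumin family upward, while the contractile list showed little lean. The largest fall among the calls was that of myod1.S, the transcription factor that commits cells to skeletal muscle and acts in its satellite cells. It read 2.05, 1.73 and 1.74 in T3 6 h arrays, against 3.44, 3.41 and 2.82 in vehicle, a 2.61-fold lower level (log2 -1.38 ± 0.19, adjusted p = 0.0432). Its homeolog myod1.L had -0.63 with groups that did not overlap (adjusted p = 0.147). Of the 9 tested probe sets of myogenic regulators 1 fell, where 0.0492% of all tested did, none rose, and the median was -0.23. Wholly below vehicle lay 4 (44.4%) and none above, against 10.5% and 14.1% of all tested. These 4 were both myod1 homeologs, the related factor myf5.L, and mef2a.L, which works with them on muscle promoters and had -0.69. The MEF2 coactivator myos.L read 1.4, 1.46 and 1.2 after T3 for 6 h and 2.64, 2.05 and 2.49 in vehicle (log2 -1.04, adjusted p = 0.167). By array the median of the myogenic regulators was -0.55, -0.08 and -0.24 in T3 6 h arrays 1, 2 and 3, relative to the vehicle mean. It was -0.05, -0.08 and 0.07 in vehicle arrays 1, 2 and 3, so T3 6 h array 2 lay within the vehicle range. Without T3 6 h array 2 myod1.S had an adjusted p of 0.0503, and the list had no call and a median of -0.39.

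The contractile genes of differentiated fibres showed no such lean. Their list had a median of 0.06 over 54 tested probe sets and 0 calls. Wholly above vehicle lay 6 (11.1%) and below 2 (3.7%), against 14.1% and 10.5% of all tested. The summed intensity of the muscle markers ranged from 9400 to 10700 in T3 6 h arrays and from 9140 to 9550 in vehicle arrays. Both myosin light chain probe sets of myl1.L had changes of 0.27 and 0.20, near the top of the intensity range. The lowest change was that of acta2.L, smooth muscle actin in mammals, at -0.87 (adjusted p = 0.127). Calcium buffers of the parvalbumin family, which speed the relaxation of fast fibres, leaned upward. All 8 tested probe sets had a positive change, and the median was 0.39. Of these, 6 (75%) lay wholly above vehicle, against 14.1% of all tested. The call was ocm4.3.S, at 5.41, 4.95 and 5.65 in T3 6 h arrays against 3.37, 3.29 and 4.07 in vehicle arrays (log2 1.76 ± 0.26, 3.39-fold, adjusted p = 0.0432). Its homeolog ocm4.3.L read 7.03, 7.14 and 7.24, against 6.07, 5.98 and 6.25 in vehicle, a log2 change of 1.03 (adjusted p = 0.0724), and ocm4.5.S had 0.62. Probe sets of close family members can bind each other's transcripts, so these values are not independent.

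Matrix genes leaned downward, and a Wnt antagonist was called. The secreted frizzled-related protein sfrp2.S, which binds Wnt ligands outside the cell, fell. It read 1.34, 1.69 and 1.99 in T3 6 h arrays, against 3.27, 3.14 and 2.54 in vehicle, and vehicle array 3 lay closest to the T3 arrays (log2 -1.31 ± 0.21, adjusted p = 0.0432). Its adjusted p was 0.0506 when only the 6 arrays were fitted and 0.0570 without T3 6 h array 2. The other Wnt genes had no call, and the list of 14 tested was split, with 6 positive, 8 negative and a median of -0.07. In the extracellular matrix list 34 of 41 tested probe sets had a negative change. The median was -0.34 and none was called. Wholly below vehicle lay 13 (31.7%) and above 2 (4.88%), against 10.5% and 14.1% of all tested. By array the median was -0.54, -0.11 and -0.40 in T3 6 h arrays 1, 2 and 3, relative to the vehicle mean. It was 0.05, 0.06 and -0.11 in vehicle arrays 1, 2 and 3, so T3 6 h array 2 was no lower than vehicle array 3. Without T3 6 h array 2 the median was -0.44. Tenascin C (tnc.L), a matrix glycoprotein of remodelling tissue, read 0.88, 1.75 and 1.73 after T3 for 6 h and 2.50, 2.50 and 2.58 in vehicle (log2 -1.08, adjusted p = 0.0967). Another tested probe set of tnc.L had -0.55 with overlapping groups (limma adjusted p = 0.256). The collagen VI chains col6a2.L and col6a1.L had -0.98 and -0.52, and fibulin fbln1.L had -0.61. The 2 that lay above vehicle were both homeologs of p4hb, an enzyme of collagen folding that is also on the chaperone list.

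Matricellular and immediate early genes shared the direction. Of 37 tested immediate early probe sets, genes that respond quickly to growth factors and stress, 29 had a negative change. The list median was -0.23 with no call, and 7 of the 37 (18.9%) lay wholly below vehicle, against 10.5% of all tested. Relative to the vehicle mean, the list median was -0.25, -0.25 and -0.09 in T3 6 h arrays 1, 2 and 3. It was 0.01, 0.11 and -0.21 in vehicle arrays 1, 2 and 3, so T3 6 h array 3 lay within the vehicle range. The integrin ligand ccn1.S read 1.86, 2.15 and 2.12 in T3 6 h arrays and 3.05, 3.69 and 2.83 in vehicle arrays (log2 -1.15, adjusted p = 0.0588), and the related ccn2.L had -0.62. The zinc finger factor egr1.L read 2.43, 2.02 and 2.15 after 6 h of T3 and 2.53, 4.44 and 2.50 in vehicle, so its mean difference of -0.96 rests mostly on vehicle array 2. The 8 positive probe sets included a single one wholly above vehicle, the bZIP factor of acute responses cebpd.S, which read 6.16, 5.91 and 6.26, against 5.53, 5.34 and 5.07 in vehicle (log2 0.79, adjusted p = 0.0588). In the Notch, Id, Hes and Hedgehog list 12 of 14 tested had a negative change. The median was -0.44, and 5 (35.7%) lay wholly below vehicle and none above, against 10.5% and 14.1% of all tested. The Id inhibitor of helix-loop-helix factors id3 had -0.81, its relative id2.L -0.55 and the Notch target hes4.S -0.61. The median was -0.18 in T3 6 h array 2 and -0.45 and -0.64 in arrays 1 and 3. The receptor fgfr1.L (-0.75) and bmpr1a.L (-0.55) had the lowest p-values of the 20 tested growth factor signalling probe sets besides tgfbr1.S (0.53), and that list had 8 positive and 12 negative changes and a median of -0.12.

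Cell cycle genes leaned the same way, with an exception that was called. Of 38 tested probe sets, 29 had a negative change. Against 10.5% of all tested, 11 (28.9%) lay wholly below vehicle, among them cyclin B ccnb1.2.L (-0.72), cdk1.L and the ribonucleotide reductase subunit rrm1.L (-0.66). A further 3 (7.89%) lay wholly above, where 14.1% of all tested were. The median was -0.12. In contrast arpp19.L, an inhibitor of the phosphatase PP2A that helps cells enter mitosis, rose. Its arrays differed little within a group, at 3.11, 3.11 and 3.09 after T3 for 6 h and 2.45, 2.44 and 2.41 in vehicle (log2 0.67 ± 0.11, adjusted p = 0.0432). Its homeolog arpp19.S had 0.26. Matrix-degrading enzymes and their inhibitors were mixed, with 12 of 22 tested positive and no call. Wholly above vehicle lay 2 (9.09%) and below 5 (22.7%), against 14.1% and 10.5% of all tested. Those below included the gelatinase mmp2.S (-0.72) and the inhibitor timp2.L (-0.53). The collagenase-type mmp1.S read 3.97, 3.69 and 5.0 after 6 h of T3 and 3.38, 2.14 and 1.91 in vehicle. Its log2 change of 1.74 had a wide error (SE 0.57, adjusted p = 0.189).

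**Figure D3:**
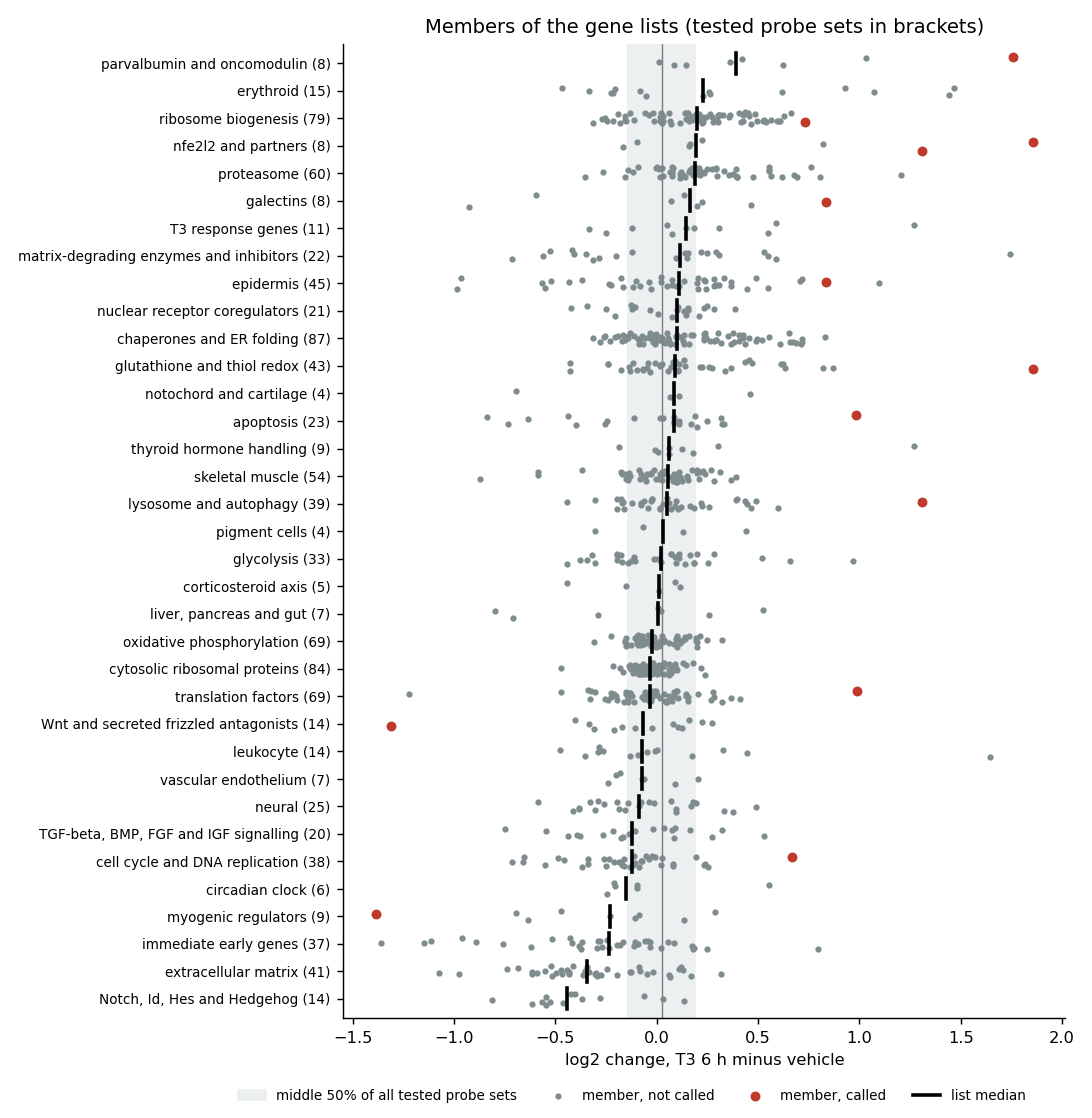
Log2 change, T3 6 h minus vehicle (horizontal axis), of the tested members of the 35 gene lists, ordered by list median (black bars). The grey band spans the quartiles of all tested probe sets, -0.14 to 0.19. The medians of the Notch, Id and Hes list (-0.44), extracellular matrix (-0.34), immediate early genes, myogenic regulators and, at its edge, the clock list lie below the band, and those of parvalbumins (0.39), the erythroid list (0.23), ribosome biogenesis (0.20), nfe2l2 partners and, at its edge, the proteasome lie above it.

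The classical T3 response genes had no call at 6 h, and many were too dim to be tested. Of the 24 probe sets of this list 11 passed the level filter, none was called and the median change was 0.15. Of the 11, 2 (18.2%) lay wholly above vehicle and none below, against 14.1% and 10.5% of all tested. The highest was dio3.L, the deiodinase that inactivates T3. It read 3.18, 2.56 and 2.95 after 6 h of T3 and 1.81, 1.78 and 1.29 in vehicle arrays (log2 1.27 ± 0.27, adjusted p = 0.0861), it had an adjusted p of 0.0466 in the fit of 6 arrays, and its change at 48 h of T3 was 2.73. The collagenase-like mmp13l.L had 0.59 at 6 h and 2.42 at 48 h, and mmp13l.S 0.55 at 6 h and 4.75 at 48 h. Another probe set of mmp13l.L was too dim to be tested and had 0.005 at 6 h and 0.36 at 48 h. The membrane protease fap.L had 0.31 and 4.85, and the stromelysin mmp11.L -0.12 and 2.38. All of these but the dim mmp13l.L probe set were higher at T3 48 h than at T3 6 h in the direct test. The early factors lay below the array median at 6 h and were not tested: klf9.L read -0.04, -0.54 and -0.45 after T3 and -0.95, -0.65 and -0.91 in vehicle, and thibz.L read -2.56, -2.79 and -2.51 after T3 and -2.63, -2.88 and -2.78 in vehicle. The klf9.L arrays thus lay wholly above vehicle (log2 0.50) but are not counted among the 2 above. The dimmer klf9-b had 0.07 with overlapping groups. The genes thdl17.L and thdl18.S, named for being down-regulated by thyroid hormone, had changes of 0.18 and 0.05 at 6 h and of -3.28 and -3.07 at 48 h. No probe set listed thrb alone. Of the 9 tested members of the hormone transport and metabolism list, all but dio3.L had changes between -0.19 and 0.30. The nuclear receptor coregulators, which the receptors recruit, had a median of 0.10 over 21 tested and no call.

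A galectin was called, and several genes of epithelial barrier and transport had changes without a call. The carbohydrate-binding lgals4.2.L read 5.13, 5.28 and 5.27 in T3 6 h arrays, against 4.41, 4.46 and 4.31 in vehicle (log2 0.83 ± 0.13, adjusted p = 0.0432), and no other of the 8 tested galectin probe sets was called. Its adjusted p without T3 6 h array 2 was 0.0570. The epidermis list had a median of 0.11 over 45 tested, with 29 positive and 16 negative changes. The 8 (17.8%) wholly above vehicle and 2 (4.44%) below compare with 14.1% and 10.5% of all tested. The summed intensity of its markers was 1440 to 1560 in T3 6 h arrays and 1330 to 1410 in vehicle arrays. These ranges did not overlap. The gene lgals4.2.L is itself on this list as its 1 call, so the sum contains it, as it does cdh1.S and evpl.L. The sum is therefore not separate from these genes. What part the amount of epidermis had in the value of lgals4.2.L was not tested. E-cadherin (cdh1.S) had 0.72 and the desmosome-linked envoplakin evpl.L 0.71. Outside the list the water and glycerol channel aqp3.L read 3.95, 2.36 and 2.79 after 6 h of T3 and 1.21, 1.67 and 0.95 in vehicle (log2 1.75, adjusted p = 0.116). Cornifelin cnfn.1.L, a protein of the cornified layer in mammals, read 4.21, 3.93 and 4.73, against 3.68, 2.53 and 2.63 (log2 1.34, adjusted p = 0.168). Its homeolog cnfn.1.S had 0.63 with overlapping groups (limma adjusted p = 0.418).

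Several of the largest changes without a call were those of the genes that follow. The secreted glycoprotein olfm4.L, a neutrophil and gut product in mammals, had the largest positive change among tested single-gene probe sets whose groups did not overlap. It read 4.05, 4.0 and 5.11 in T3 6 h arrays and 2.58, 2.67 and 1.65 in vehicle arrays (log2 2.09 ± 0.42, adjusted p = 0.0724, and 0.0482 in the fit of 6 arrays). The globins hba4.S, hbg2.L and hba3.L had 1.46, 1.44 and 1.07. The erythroid markers, these globins among them, summed to 480 to 824 in T3 6 h arrays against 363 to 438 in vehicle arrays, without overlap. The list as a whole was split, with 8 of 15 tested positive and 14 of its 31 probe sets below the array median on all 9 arrays. Globin values varied between pools: hba4.S read 6.15, 4.66 and 6.01 after 6 h of T3 and 4.03, 4.2 and 4.2 in vehicle, and without T3 6 h array 2 hba3.L was called (log2 1.23, adjusted p = 0.0468). The mitochondrial protein higd1a.L, induced by low oxygen in mammals, read 3.71, 3.80 and 3.39 after 6 h of T3 and 2.17, 2.10 and 2.30 in vehicle (log2 1.44 ± 0.28, adjusted p = 0.0623, and 0.0104 in the fit of 6 arrays). Its homeolog higd1a.S had 0.63 (limma adjusted p = 0.309). In the other direction, egln3.L, a prolyl hydroxylase that marks hypoxia-inducible factors for destruction, had -1.12, -0.94 and -0.54 in its 3 tested probe sets (adjusted p = 0.0721, 0.0643 and 0.264), and its dim homeolog egln3.S, which was not tested, had -0.15. Whether oxygen had a part in the values of higd1a.L and egln3.L was not tested. Leukocyte, neural, endothelial, pigment, notochord, and liver, pancreas and gut lists had no call and medians between -0.09 and 0.09.

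**Figure D4:**
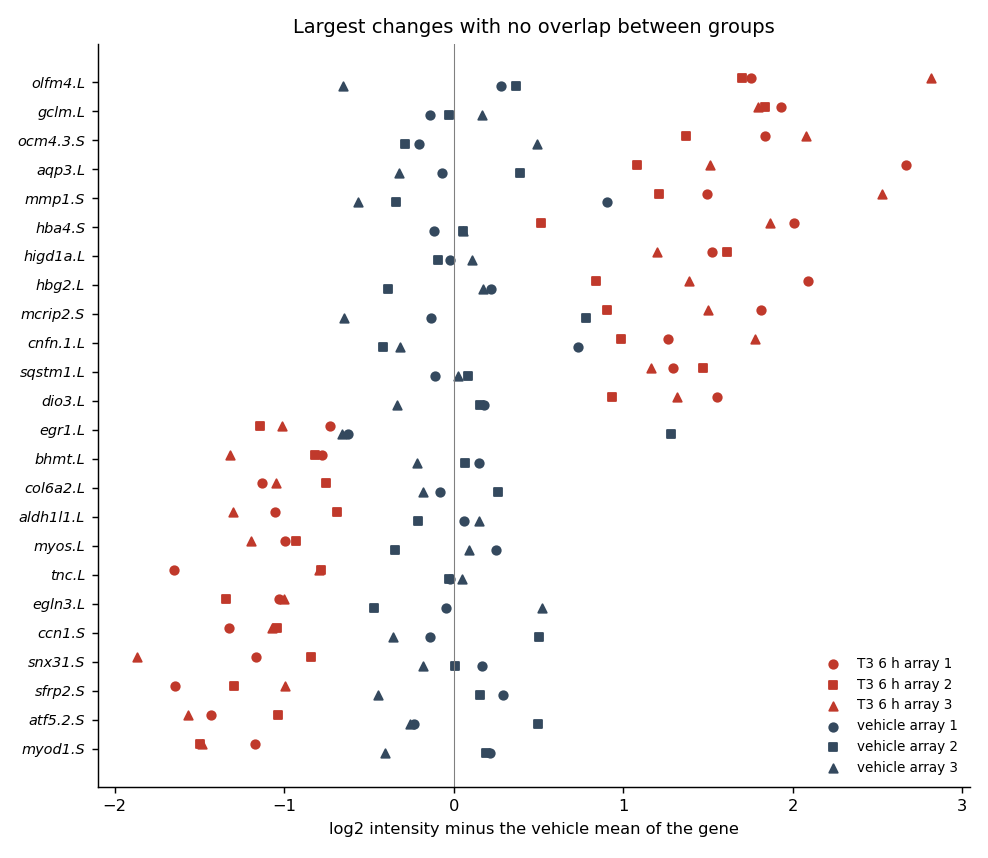
Log2 intensity minus the vehicle mean of the gene (horizontal axis) for the 12 genes with the largest positive and the 12 with the largest negative change among those whose groups do not overlap. Symbols mark arrays 1, 2 and 3, with T3 6 h above vehicle in each row. T3 6 h array 2 is the array nearest to vehicle for hba4.S, hbg2.L and aqp3.L, and the egr1.L difference rests on vehicle array 2.

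The remaining called genes came singly. The membrane protein grina.L, of the family of TMBIM inhibitors of cell death, read 2.88, 2.33 and 2.62 in T3 6 h arrays, against 1.58, 1.73 and 1.56 in vehicle (log2 0.99 ± 0.15, adjusted p = 0.0432). It was the only call in the apoptosis list of 23 tested, where 0.172% of all tested were called higher. In that list 6 (26.1%) lay wholly above vehicle and 5 (21.7%) below, against 14.1% and 10.5% of all tested. Its cell death and translation regulator pdcd4 had -0.84 and -0.73 in the S and L homeologs. The membrane protein lmbr1l.L fell, at -0.06, 0.06 and -0.23 after 6 h of T3 and 0.82, 0.62 and 0.78 in vehicle (log2 -0.82 ± 0.13). So did tmem52.L, a membrane protein, at 1.37, 1.59 and 1.41 and, in vehicle, 2.17, 2.23 and 2.21 (log2 -0.75 ± 0.12), both with an adjusted p of 0.0432 in limma. Its homeolog tmem52.S had -0.35. The 6 called probe sets with no gene listed had changes between 0.76 and 1.14 at 6 h, and a single one of them stood higher still at 48 h, with 0.83 at 6 h and 2.81 at 48 h. The probe set with 1.14 passed the level filter only through its T3 6 h arrays.

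Just past the threshold a further 22 probe sets had an adjusted p between 0.05 and 0.06, 16 higher and 6 lower, and 95 in all were under 0.1. The genes named from these 22 were picked after their values had been seen. Those with a positive change included the estrogen-related receptor esrra.L (0.82), a regulator of mitochondrial genes, the zinc transporter slc39a7.L (0.67) of the secretory pathway, the histone chaperone npm3.L (1.05) and the mitochondrial ribosomal protein mrps17.L (1.06). Those with a negative change included the histone demethylase kdm3a.S (-0.83) and the mesenchymal cadherin cdh11.S (-0.82). Among uncalled genes with large changes, the choline pathway enzyme bhmt.L had -0.97 and -0.88 in its 2 probe sets, and the folate enzyme aldh1l1.L had -1.01. For the bZIP factor atf5.2.S the probe sets differed, at -1.34, -0.14 and -0.05. The sorting nexin snx31.S, with -1.29, lay near or below the array median and passed the level filter only through its vehicle arrays. The energy lists were flat, with medians of -0.02 for oxidative phosphorylation (69 tested) and 0.02 for glycolysis (33 tested), although the hexokinase hk1.L had 0.97 (adjusted p = 0.145). The small clock and corticosteroid lists had no call among 6 and 5 tested.

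The pools did not contribute equally. Among the 1142 probe sets wholly above vehicle, the T3 6 h array closest to vehicle was array 2 in 644 (56.4%), array 1 in 275 and array 3 in 223. Among the 852 wholly below, it was array 2 in 434 (50.9%), array 3 in 215 and array 1 in 203. Without array 2 the count of probe sets whose groups did not overlap was 3481, in a comparison that fewer arrays make easier to meet, against 1994 with all. The vehicle arrays were more even, with arrays 1, 2 and 3 closest to T3 in 365, 288 and 489 of the higher and in 248, 320 and 284 of the lower probe sets. RNA quality controls did not separate the groups. The 3'-minus-5' log2 difference of the Gapd control was 1.18 to 1.48 in T3 6 h arrays and 1.24 to 1.37 in vehicle arrays.

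The 12 called genes are given here at 48 h as well. Of these, 4 were called at 48 h of T3 against vehicle, where 11% of all tested probe sets were, and 10 differed between T3 48 h and T3 6 h, where 19.4% did. The genes had been chosen by their T3 6 h values and that comparison uses the same T3 6 h arrays, so the count is a description and nothing is read from it. At 48 h sqstm1.L was not called against vehicle. T3 48 h averaged 4.22 ± 0.18, against 5.80 ± 0.15 at T3 6 h and 4.49 ± 0.10 in vehicle (SD, n = 3 each). The level of gclm.L at 48 h was spread between 2.21 and 3.42 over the pools, with a mean of 2.93, against 4.26 at T3 6 h and 2.41 in vehicle. For eef1aknmt.S the sign turned, with 0.99 at 6 h and -0.50 at 48 h (adjusted p = 0.0393). It also turned for lmbr1l.L, with -0.82 at 6 h and 0.58 at 48 h (adjusted p = 0.0200). Only sfrp2.S and tmem52.L were called in the same direction at both times, with -0.98 and -0.49 at 48 h, and neither differed between T3 48 h and T3 6 h beyond the error (adjusted p = 0.297 and 0.145). The comparisons with vehicle share the vehicle arrays, so they are given side by side only.

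**Figure D5:**
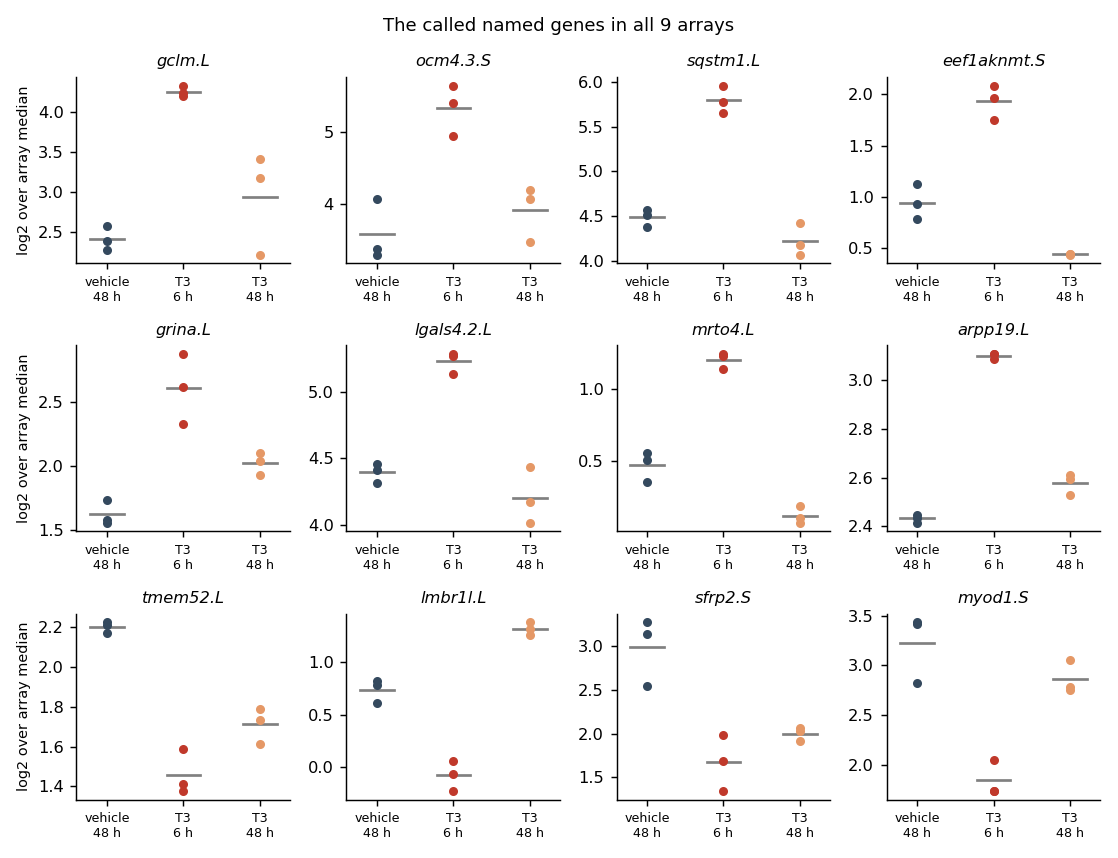
Log2 intensity over the array median (vertical axes, scaled per gene) of the 12 called genes in vehicle, T3 6 h and T3 48 h. Points are arrays and bars group means. The 8 genes higher at T3 6 h are all lower at T3 48 h than at T3 6 h, while sfrp2.S and tmem52.L stay below vehicle.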

How the data were processed

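Total RNA of pooled tails was hybridised to Affymetrix Xenopus laevis arrays. Intensities were deposited as 1 linear value per probe set and array, made with GCRMA per the submitters' processing notes (version not given in the sources used here). Each deposited column has a median of 1, from which it follows that the authors' values are relative to the array median; no detection calls or scan dates are in the file. A fold change of a probe set below the array median depends on the background correction.

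Log2 values of all 9 arrays were fitted in limma 3.58.1 (R 4.3.3) with the 3 groups as coefficients, eBayes with an intensity trend and two-sided tests; a call was a Benjamini-Hochberg adjusted p under 0.05. The fit was tested on simulated data. Of 15491 probe sets (120 controls left out), 9304 listed 1 gene in the platform annotation, 195 several and 5992 none; 9227 matched RefSeq (Xenopus_laevis_v10.1) by gene ID, which updated 2 symbols. Only probe sets with 1 gene were named: all calls, the 12 largest changes in each direction whose groups did not overlap, the 3 lowest p-values of each of 35 gene lists, all T3 response genes, and other homeologs (.L, .S) and probe sets of called or largest genes. Other list members were picked after their values were seen. The members and lists were chosen with earlier results of these data known. Lists are counted in probe sets, and no set test was run. Depth does not apply to arrays; the number of arrays limits precision. Alternatives were the level filter, normalization, the arrays and weights in the fit, the variance model, a replicate block and leaving out each array.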

Additional observations from a re-analysis of the deposited data

Results flagged for a closer look

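For 58 of the tested probe sets named by rule the change at 48 h differed from that at 6 h in the direct limma test of T3 48 h against T3 6 h, a comparison that both durations enter and that vehicle does not. Of all tested probe sets, 19.4% differed in the same test. Named probe sets that did not pass the level filter, such as that of thibz.L, are not among the 58. The values below are log2 differences, T3 48 h minus T3 6 h. Time in the container differs between these groups as well, and many of these genes were named for their T3 6 h values, which this comparison reuses. The values describe the probe sets listed and not their gene groups.

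Proteases, their inhibitor and a collagen chain among these probe sets were higher at 48 h, with 4.54 for fap.L, 4.2 and 1.83 for mmp13l.S and mmp13l.L, 2.50 for mmp11.L, 1.76 for the inhibitor timp2.L, 1.43 for mmp2.S and 0.70 for col6a1.L. The deiodinase dio3.L differed by 1.46. Signalling and transcription genes that were higher at 48 h were gap43.S (1.99), cxcr4.L (1.24), dkk2.L (1.14), id2.L (0.96), hes4.S (0.95), fgfr1.L (0.93), tsc22d3.L (0.55) and hdac2.S (0.44). Among genes with negative changes at 6 h, lmbr1l.L differed by 1.40, egln3.L by 1.23 and 0.91 in a pair of probe sets, bhmt.L by 1.03 and 0.87 in both of its probe sets, and myod1.S by 1.02.

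Lower at 48 h than at 6 h were the following members of the redox, autophagy, proteasome and chaperone lists. The differences were -1.33 for gclm.L, -0.80 for gclc.L, -0.73 for glrx5.S, -1.58 for sqstm1.L, -0.57 for atg5.L, -0.79 for psme3.L, -1.01 for psmg1.L, -1.40 for hspbp1.L, and -0.76 and -1.0 for both probe sets of hspe1.L. For ribosome and translation genes they were -1.09 for mrto4.L, -1.03 for utp15.L, -0.94 for polr1a.L and -1.49 for eef1aknmt.S. Galectin and barrier genes had -1.02 for lgals4.2.L, -0.88 for lgals9b.L, -1.05 for evpl.L, -0.96 for cdh1.S and -1.72 for cnfn.1.L. Muscle and metabolic genes had -1.43 for ocm4.3.S, -0.91 for ocm4.3.L, -0.49 for ocm4.5.S, -0.33 for myl1.L, -0.48 for cox7c.S and -2.21 for hk1.L. The rest were arpp19.L (-0.52), grina.L (-0.59), slc3a2.L (-0.43), arntl.L (-0.83), mcrip2.S (-2.44), mcrip2.L (-1.31), atf5.2.S (-0.89 in 1 of its probe sets), the cartilage genes cnmd.L (-1.74) and col9a1.L (-1.96), and thdl18.S (-3.12) and thdl17.L (-3.46).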

How the results depend on the processing

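Of the settings tried, the count of 18 calls stayed within 1.5 times under the filter at log2 1 (13), the filter on the mean of the 6 arrays (18), centring (15), no trend (21) and a robust fit (21). It was 2 with no level filter, of which 1 was shared, 1 under quantile normalization, 66 with 6 arrays only and 547 with array weights. Leaving out 1 array gave 0 to 99 calls. The count of 0 without T3 6 h array 1 had 867 unadjusted p-values under 0.05 in limma, that without vehicle array 1 had 940 and that without vehicle array 2 had 988. With the replicate number as a block the count was 0, with a lowest adjusted p of 0.0552 and 1192 unadjusted p-values under 0.05. The numbers pair nothing in the labels, and deviations of same-numbered arrays correlated at -0.02, -0.12 and -0.05. Sets without overlap numbered 2499 to 3481 without 1 array. Under every setting that tested them the 18 kept their sign. For the fits that changed only the arrays this was fixed in advance, because their groups do not overlap. The cause of these shifts was not tested. Quantile normalization and centring moved the median of all tested probe sets by under 0.03. The list medians of ribosome biogenesis (0.14 to 0.26), proteasome (0.14 to 0.27), parvalbumins (0.32 to 0.47), extracellular matrix (-0.44 to -0.24), Notch, Id and Hes (-0.55 to -0.09), immediate early genes (-0.29 to -0.11), chaperones (0.06 to 0.15) and myogenic regulators (-0.39 to -0.03) kept their sign in the 12 settings tried for lists, the reported one included. That of the erythroid list ran from -0.05 without T3 6 h array 2 to 0.44. List calls without T3 6 h array 2 or T3 48 h array 1 were added after seeing the data. Without T3 48 h array 1 the proteasome list had 3 higher calls of 60 tested, chaperones 1 of 87, and extracellular matrix 1 lower of 41. That fit called 65 higher and 34 lower among all 8123 tested probe sets. The arrays have no detection calls, so how far a dim probe set lies above background is not known.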

Other observations

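The fit of the 6 arrays alone named 47 probe sets with a single gene, and those below were picked from it after their values were seen. They come from the same 6 arrays and some were already described above, so they add no evidence about the gene groups. Higher at 6 h in that fit were the mitochondrial sulfur dioxygenase ethe1.L in both of its probe sets (log2 0.93 and 0.91), the proteasome activators psme3.L (1.21) and psme4.L (0.80), the deubiquitinase usp10.S (0.79), the endoplasmic reticulum co-chaperone dnajb11.S (0.83), the ribosomal RNA processing factor rcl1.L (0.75) and the muscle LIM protein csrp3.L (0.66). Lower were the receptor fgfr1.L (-0.75), the cell surface protein mxra8.S (-0.78), the RNA-binding protein celf2.L (-0.80), cdh11.S (-0.82), col6a2.L (-0.98) and myos.L (-1.04). Their adjusted p-values in limma lay between 0.0466 and 0.0482, close to the threshold, and none of these genes was called when all 9 arrays were fitted.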
